A study of Homo sapiens with 7 samples.

Results

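Sites with peaks of both OCA-B and OCT2 were described pair by pair in OCI-Ly7, an established line from a diffuse large B-cell lymphoma. Each OCA-B peak on chromosomes 1 to 22 and X was paired with the OCT2 peak that overlapped it by at least 1 bp and had the nearest summit. This gave 43320 pairs from 55361 OCA-B peaks and 73829 OCT2 peaks, of 323423 peaks in the 6 lists of the series. OCA-B was precipitated with the antibody ab92315 from Abcam and OCT2 with sc-233 from Santa Cruz in suspension cultures of the same line. Libraries of OCT1 (sc232, Santa Cruz), MED1 (A300-793A, Bethyl), CREBBP (sc-584, Santa Cruz) and EP300 (sc369, Santa Cruz) were used to annotate the pairs, and an input library was the control of all 6 peak lists. The list of each factor came from 1 library of this single line, so none of the values below has a replicate check, and a difference between OCA-B and OCT2 cannot be told apart from a difference between the antibodies or the libraries.

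OCA-B, the product of POU2AF1, is a B-cell coactivator that holds little DNA by itself and is recruited by the POU domains of OCT2 (POU2F2) and OCT1 (POU2F1) on the octamer, the motif ATGCAAAT. The complex is known for driving immunoglobulin and germinal centre genes. H2B histone genes and small nuclear RNA genes carry octamers as well and are transcribed in all dividing cells, and OCT1 is expressed in most cell types whereas OCT2 and OCA-B are enriched in B cells. The comparison asked where the signal of the coactivator followed that of its POU partner and where the relative strengths came apart.

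The value used was the pileup at the summit, which is the number of extended tags covering that base, as the authors' peak caller gave it. Each pileup was turned into a percentile rank within its own list, with 100 the strongest peak, and the rank difference is the OCA-B rank minus the OCT2 rank. A pair was called OCA-B-high at a difference of 30 points or more and OCT2-high at -30 points or less, and all others were called middle pairs. Of all pairs, 1076 (2.48%) were OCA-B-high and 8152 (18.8%) were OCT2-high. These shares are the background for every count below. The OCT2 list is longer, so a rank in it does not mean the same as a rank in the OCA-B list. When both ranks were taken among the 43320 pairs alone, 3800 pairs were OCA-B-high and 4121 were OCT2-high, so the imbalance between the counts was not seen on that scale.

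Promoter sequences were read from RefSeq windows of GRCh38.p14, which run from 250 bases before to 50 bases after a gene start. The first set shows stretches upstream of genes whose pair was OCA-B-high and whose window held CACGTG, the core of the E-box that basic helix-loop-helix leucine zipper factors such as USF1, MYC and the MITF family bind. The genes are those the later sections name. Capitals mark CACGTG, and all sequences run 5′ to 3′ on the strand of the gene.
RRAGB (chrX:55717689-55717748, plus strand): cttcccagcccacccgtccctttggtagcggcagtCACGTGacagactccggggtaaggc
DNAJC8 (chr1:28233030-28233089, minus strand): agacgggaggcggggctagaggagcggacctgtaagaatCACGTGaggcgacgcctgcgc
MRPL45 (chr17:38297008-38297067, plus strand): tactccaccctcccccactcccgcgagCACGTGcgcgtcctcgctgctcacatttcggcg
COMMD4 (chr15:75335991-75336050, plus strand): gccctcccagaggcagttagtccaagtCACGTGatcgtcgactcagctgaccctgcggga
SNRNP48 (chr6:7590138-7590197, plus strand): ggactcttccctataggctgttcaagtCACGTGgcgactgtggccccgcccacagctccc
CDK4 (chr12:57752379-57752438, minus strand): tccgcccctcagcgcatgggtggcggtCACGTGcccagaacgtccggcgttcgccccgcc
ATF4 (chr22:39520450-39520509, plus strand): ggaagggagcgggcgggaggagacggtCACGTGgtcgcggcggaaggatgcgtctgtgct

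The octamer, marked by capitals in either orientation, was in the window of only 2 OCA-B-high pairs, at TOP1 (DNA topoisomerase I) and NAP1L4 (a histone chaperone).
TOP1 (chr20:41028629-41028688, plus strand): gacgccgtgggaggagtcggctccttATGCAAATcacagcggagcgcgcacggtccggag
NAP1L4 (chr11:2992446-2992505, minus strand): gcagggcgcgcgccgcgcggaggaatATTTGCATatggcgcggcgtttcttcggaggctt

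OCT2-high pairs with the octamer upstream of a gene start included ZNF625 (a zinc-finger gene), PUM2 (an RNA-binding translational repressor), FCRLB (an Fc receptor-like gene of B cells) and PLEKHG7 (a gene with a guanine exchange factor domain).
ZNF625 (chr19:12156910-12156969, minus strand): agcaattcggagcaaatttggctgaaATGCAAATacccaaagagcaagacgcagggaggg
PUM2 (chr2:20352310-20352369, minus strand): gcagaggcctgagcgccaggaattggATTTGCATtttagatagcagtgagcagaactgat
FCRLB (chr1:161721453-161721512, plus strand): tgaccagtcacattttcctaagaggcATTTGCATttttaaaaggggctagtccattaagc
PLEKHG7 (chr12:92702792-92702851, plus strand): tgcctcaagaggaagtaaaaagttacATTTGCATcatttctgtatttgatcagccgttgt

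For comparison, the octamers of 4 H2B genes, at which both factors were among the strongest of their lists, stood as follows.
H2BC3 (chr6:26043815-26043844, minus strand): ataaattccatATTTGCATaaaccccaccc
H2BC4 (chr6:26124031-26124060, minus strand): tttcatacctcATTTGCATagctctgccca
H2BC8 (chr6:26216718-26216747, minus strand): ttgaattctttATTTGCATgaaaggcctat
H2BC11 (chr6:27132824-27132853, minus strand): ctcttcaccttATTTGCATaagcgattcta

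The OCA-B and OCT2 pileups moved together, and OCT2 ranked higher within its list in 71.9% of pairs, a direction that turned with the ranking scale. Over the pairs, Spearman's rho of the pileups was 0.67 and Pearson's r of the log2 pileups was 0.70. These describe sites that share 2 libraries and 1 control, and no p is given. The median pileup was 23 for OCA-B and 35 for OCT2, with a middle 50% of 16 to 41 for OCA-B and 21 to 70 for OCT2. The median rank was 58.1 for OCA-B and 72.1 for OCT2, and the median rank difference was -8.00, but 0.91 with ranks among the pairs alone (middle 50% -11.3 to 13.4) and -1.93 with the OCT2 list shortened to the OCA-B length, so no overall lead of either factor can be read from it. The differences ran from -96.9 to 92.0, and 42.2% of the pairs lay within 10 points of 0. The top of the scale is limited, because 1 tag was kept per position and the pileup cannot exceed 2 times the fragment length. The highest pileup was 296 for OCA-B and 290 for OCT2, which are these limits, and 34 pairs had an OCA-B pileup at 80% or more of its limit against 1044 pairs for OCT2.

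**Figure D1:**
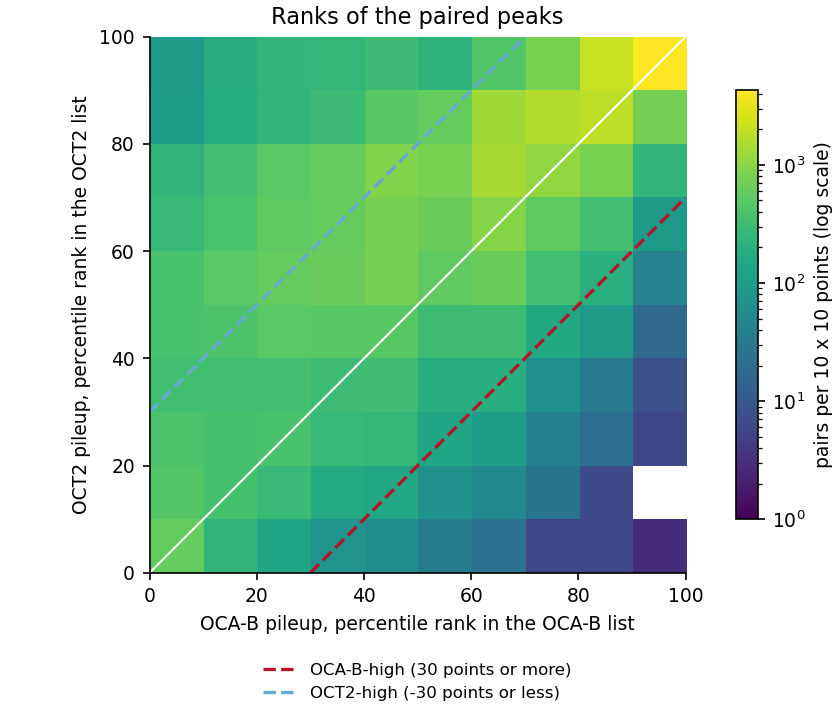
Percentile rank of the OCA-B pileup (x axis) against that of the OCT2 pileup (y axis) for the 43320 pairs, with colour giving the number of pairs per square on a log scale. The white line marks equal ranks, the red dashed line the edge of the 1076 OCA-B-high pairs and the blue dashed line that of the 8152 OCT2-high pairs, and the most crowded square is at the top of both lists.

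OCA-B peaks with no OCT2 overlap numbered 12041, had a median OCA-B pileup of 14 and stood at a median rank of 24.4. OCT2 peaks overlapping no OCA-B peak numbered 32153, with a median pileup of 15 and a median rank of 29.3. OCA-B peaks without OCT2, and OCT2 peaks without OCA-B, were thus weaker in their own lists than paired peaks. Peaks of the other factors were not considered in this comparison.

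OCA-B peaks were narrower than the OCT2 peaks they overlapped at distal sites but not at gene boundaries, which are defined below. At distal pairs the median width was 324 bp for OCA-B and 462 bp for OCT2, and at gene boundary pairs it was 384 bp for OCA-B and 361 bp for OCT2. Over all pairs the median width was 337 bp for OCA-B and 438 bp for OCT2, the median log2 ratio of the widths was -0.30, and OCT2 was the wider member in 66.1% of pairs. Width moved with strength, since Spearman's rho of pileup and width was 0.74 in both lists. The OCA-B peak lay wholly inside the OCT2 peak in 41.6% of pairs, and the OCT2 peak inside the OCA-B peak in 18.1%. Wide OCT2 peaks could hold several OCA-B peaks, and 6436 pairs (14.9%) shared their OCT2 peak with another pair. In the 35081 pairs in which each peak overlapped exactly 1 of the other list, the median width was 325 bp for OCA-B and 386 bp for OCT2, and the log2 ratio was -0.21.

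The summits of a pair lay a median of 35 bp apart, and 61.3% were within 50 bp, 78.3% within 100 bp and 89.6% within 250 bp. The median of the signed offset was 0 bp. Ordered by the lower of their ranks, pairs of the weakest quintile had a median offset of 59 bp, with 44.7% within 50 bp, and those of the strongest 19 bp, with 81.9% within 50 bp. In pairs with 1 peak on each side the shares within 50 bp were 51.6% in the weakest and 83.9% in the strongest quintile. Of the 763 pairs with summits more than 1000 bp apart, 97.8% lay on an OCT2 peak shared by several OCA-B peaks, and the OCT2 peaks there had a median width of 2545 bp. The median offset was 51 bp in OCA-B-high pairs and 60 bp in OCT2-high pairs, against 31 bp in middle pairs. The OCT2 peak was shared with another OCA-B peak in 20 OCA-B-high pairs (1.86%), 2609 OCT2-high pairs (32.0%) and 3807 middle pairs (11.2%), and at such pairs the pileups can come from different summits of 1 wide OCT2 peak.

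**Figure D2:**
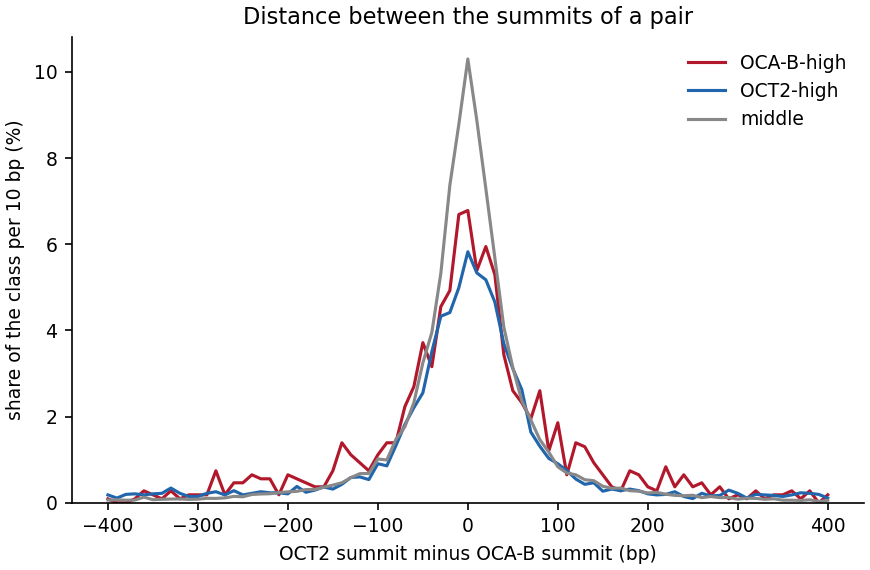
Share of the pairs of each class (y axis, percent per 10 bp) by the position of the OCT2 summit minus that of the OCA-B summit (x axis, bp). All 3 classes centre near 0, with medians of the absolute offset of 51 bp in OCA-B-high, 60 bp in OCT2-high and 31 bp in middle pairs.

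OCA-B-high pairs lay at gene starts far more often than OCT2-high pairs. A gene boundary pair had its OCA-B summit within 1 kb of the start of a protein-coding or lncRNA gene, or of either end where the strand was not given. Of OCA-B-high pairs 50.7% (95% exact binomial interval 47.6 to 53.7, counting error only, as for all intervals) were at gene boundaries, against 9.07% (8.45 to 9.71) of OCT2-high pairs and 23.3% (22.8 to 23.7) of middle pairs. The median rank difference was 0.69 at the 9223 boundary pairs and -10.4 at the 34097 distal pairs. OCA-B pileups had medians of 27 at boundaries and 22 at distal sites, while OCT2 pileups had medians of 28 at boundaries and 38 at distal sites. At boundaries the OCA-B median was thus above, and the OCT2 median below, that of distal sites. Pairs were OCA-B-high in 5.91% of boundary and 1.56% of distal cases, and OCT2-high in 8.01% of boundary and 21.7% of distal cases. Within quintiles by mean rank, OCA-B-high pairs exceeded OCT2-high pairs in boundary share by 33.5, 38.2, 53.9 and 40.04 points in the lower 4. The top quintile held too few far pairs (OCA-B-high or OCT2-high) for a value. Ranks so near the top of the scale leave almost no room for a far difference, so this says nothing about strong sites.

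OCT1, the other POU partner of OCA-B, also separated the classes. An OCT1 peak overlapped the OCA-B peak in 50.3% (47.2 to 53.3) of OCA-B-high pairs, 13.4% (12.7 to 14.2) of OCT2-high pairs and 39.5% (38.96 to 39.997) of middle pairs. Overlap with OCT1, MED1, CREBBP or EP300 was counted on the OCA-B peak alone throughout. The median width of that peak was 403 bp in OCA-B-high, 222 bp in OCT2-high and 378 bp in middle pairs. The shares can therefore move with the OCA-B width, which differs between the classes, and this was not tested. At gene boundaries alone the shares were 66.97% in OCA-B-high pairs and 15.2% in OCT2-high pairs, a difference of 51.8 points. At distal sites inside genes they were 37.5% in OCA-B-high and 12.9% in OCT2-high pairs, and between genes 24.6% in OCA-B-high and 13.99% in OCT2-high pairs. Within the 4 lower quintiles by mean rank the difference was 18.1, 33.0, 53.1 and 52.9 points. Where all of OCA-B, OCT2 and OCT1 had a peak, at 15093 OCA-B peaks, rho of the OCA-B pileup was 0.74 with OCT2 and 0.59 with OCT1. The median distance from the OCA-B summit was 25 bp to the OCT2 summit and 44 bp to the OCT1 summit. In the OCA-B-high pairs among them these distances were 47 bp to OCT2 and 105 bp to OCT1.

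MED1, a Mediator subunit, and the acetyltransferases CREBBP and EP300 were compared between the classes, with strength taken into account. The strongest quintile by mean rank held 8662 middle pairs and 1 far pair. This follows largely from the rule, because mean ranks of 84.8 or more leave almost no room for a far difference. MED1 overlapped the OCA-B peak in 53.2% (50.1 to 56.2) of OCA-B-high pairs, 61.3% (60.2 to 62.3) of OCT2-high pairs and 76.9% (76.5 to 77.4) of middle pairs. CREBBP overlapped 50.9% of OCA-B-high, 61.7% of OCT2-high and 75.6% of middle pairs. The EP300 shares were 90.6% in OCA-B-high, 84.7% in OCT2-high and 91.3% in middle pairs. All 3 were present at 37.6% of OCA-B-high, 49.3% of OCT2-high and 67.7% of middle pairs. The MED1 difference of -8.11 points between OCA-B-high and OCT2-high pairs was -0.62 points with summits within 100 bp and -1.82 points in pairs with 1 peak on each side. In the 4 lower quintiles by mean rank it was 10.8, -6.31, -21.4 and -28.4 points, so its sign differed between weak and stronger pairs. Within quintiles the middle pairs were not always the highest. In the weakest, MED1 overlapped 52.5% of OCA-B-high and 48.9% of middle pairs, and EP300 87.4% of OCA-B-high and 74.7% of middle pairs. In the fourth, MED1 overlapped 88.6% of OCT2-high and 86.3% of middle pairs.

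**Figure D3:**
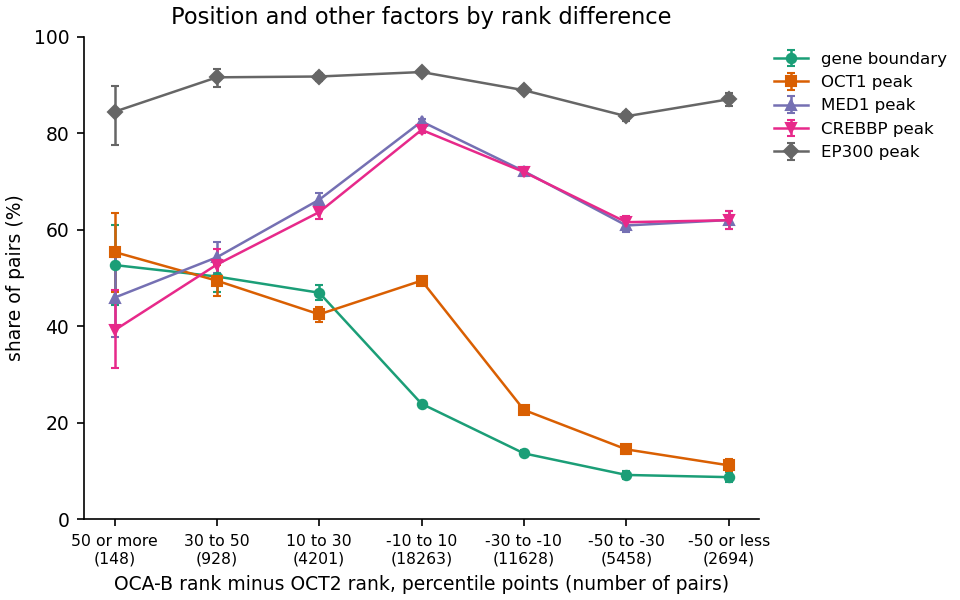
Share of pairs (y axis, percent) at a gene boundary, or with an OCA-B peak overlapping a peak of OCT1, MED1, CREBBP or EP300. The x axis is the OCA-B rank minus the OCT2 rank (percentile points, with the number of pairs), and bars are 95% exact binomial intervals. The boundary share is 52.7% at differences of 50 or more and 8.76% at -50 or less, whereas MED1 is highest, at 82.4%, between -10 and 10.

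Chromosome 19, which is rich in genes, had the largest share of OCA-B-high pairs among the 23 chromosomes. There 136 of 2015 pairs (6.75%) were OCA-B-high and 179 (8.88%) were OCT2-high. The other chromosomes had between 1.485% (chromosome 2) and 3.60% (chromosome 16) OCA-B-high pairs. The share on chromosome 19 was 10.4% at gene boundaries and 5.07% at distal sites, against 5.91% and 1.56% over all chromosomes at boundaries and at distal sites.

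Promoter sequence differed between the classes. A window was given to a pair where it held the OCA-B summit, with the nearest start chosen, which left 247 OCA-B-high, 95 OCT2-high and 2598 middle pairs, beside 34961 windows in all. Motifs were searched as exact letters on both strands. The octamer ATGCAAAT was in 0.81% (0.098 to 2.89) of OCA-B-high, 10.5% (5.16 to 18.5) of OCT2-high and 4.62% (3.84 to 5.50) of middle windows, and in 1.77% of all windows. GGGCGG, the GC box that SP-family factors bind, was in 66.0% (59.7 to 71.9) of OCA-B-high, 21.1% (13.4 to 30.6) of OCT2-high, 50.2% of middle and 45.03% of all windows. CCGGAAG, a motif of ETS factors, was in 29.1% of OCA-B-high, 6.32% of OCT2-high, 22.6% of middle and 10.3% of all windows. TATAAA was in 4.86% of OCA-B-high, 14.7% of OCT2-high, 8.74% of middle and 11.5% of all windows. CCAAT was in 43.7% of OCA-B-high, 44.2% of OCT2-high, 44.8% of middle and 34.6% of all windows. Windows with an OCA-B summit and no OCT2 peak held the octamer in 0.58%, GGGCGG in 70.5% and CCGGAAG in 25.6%. Those with an OCT2 summit and no OCA-B peak held the octamer in 8.14%, GGGCGG in 29.8% and CCGGAAG in 7.80%. Middle windows at differences of 10 to 20 points had 1.75%, 59.5% and 30.2% for these motifs. Such shares were thus not particular to the far pairs.

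Base composition moved with these shares. The median content of G and C was 61.3% in OCA-B-high, 46.7% in OCT2-high and 57.0% in middle windows. In windows of middling G and C content (45% to 60%), the octamer was in 0 of 95 OCA-B-high windows, which allows up to 3.81% by the exact interval, and in 5 of 41 OCT2-high windows (12.2%). GGGCGG was in 54.7% of these OCA-B-high windows and 24.4% of these OCT2-high windows. OCT1 peaks moved with it too: among windows with an OCT1 peak GGGCGG was in 67.2% (60.2 to 73.6) of OCA-B-high and 56.0% (34.9 to 75.6) of OCT2-high windows, with overlapping intervals, and among those without one in 60.9% of OCA-B-high and 8.57% of OCT2-high windows. Whatever the class, 13.6% of the strongest quintile of windowed pairs by mean rank held the octamer, against 1.70% to 3.23% in the other quintiles. An octamer, where it occurred once in a window, lay a median of 22 bp from the OCA-B summit and 21 bp from the OCT2 summit over 124 pairs.

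CACGTG was added to the search after the printed upstream sequences had been read, so its shares describe the windows in which it was noticed. It was in 43 of 247 OCA-B-high windows (17.4%, 12.9 to 22.7), 3 of 95 OCT2-high windows (3.16%, 0.656 to 8.95), 9.85% of middle windows and 7.27% of all windows. Among middle windows it was in 17.7% of 514 at differences of 10 to 20 points and 9.96% of 281 at 20 to 30 points. Of 1370 windows with an OCA-B summit and no OCT2 peak, 14.8% held it, so CACGTG was not particular to OCA-B-high pairs. The longer TCACGTG, which overlaps it, was in 15.0% of OCA-B-high, 3.16% of OCT2-high, 5.74% of middle and 3.72% of all windows. Among the OCA-B-high windows, CACGTG was in 42 of 201 with an OCT1 peak (20.9%, 15.5 to 27.2) and in 1 of 46 without one (2.17%, 0.055 to 11.5). Of the 12 OCA-B-high windows with the largest rank differences, 6 held it: RRAGB, DNAJC8, MRPL45, COMMD4, CUTA and SNRNP48. The octamer was in none of the 12 OCT2-high windows with the largest differences, and its share was 6.48% at differences of -10 or less and 6.08% between -10 and 10. Where CACGTG occurred once, it lay a median of 68.5 bp from the OCA-B summit and 147 bp from the OCT2 summit over 34 OCA-B-high pairs. Both distances are longer than those of the octamer. With ranks among the pairs alone, 14.5% of 868 OCA-B-high windows and 6.98% of 43 OCT2-high windows held CACGTG. The intervals overlapped (12.2 to 17.04 for OCA-B-high and 1.46 to 19.1 for OCT2-high).

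**Figure D4:**
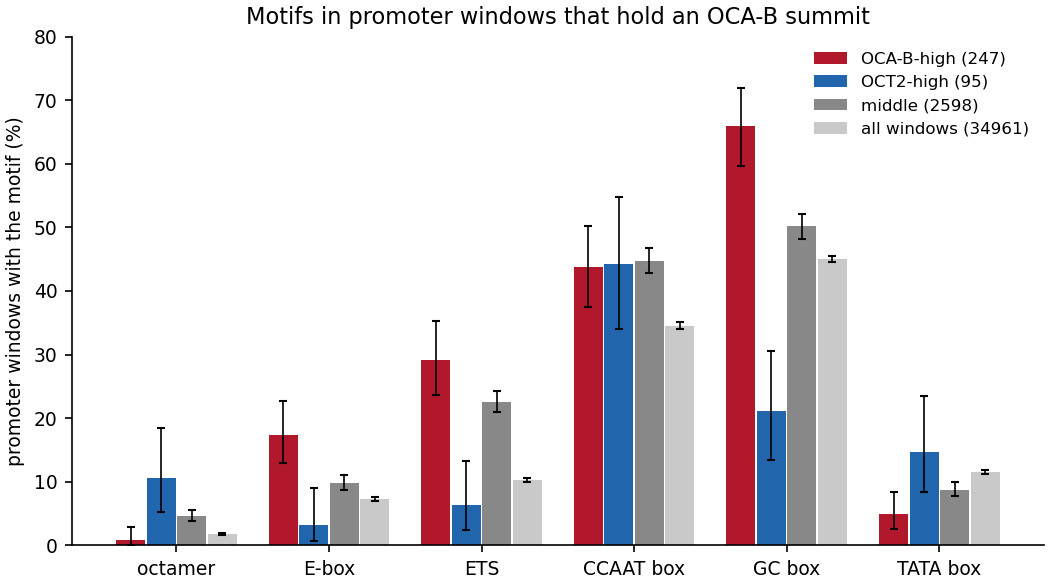
Share of promoter windows (y axis, percent) holding each motif on either strand, for windows with the OCA-B summit of an OCA-B-high, OCT2-high or middle pair and for all windows, with the number of windows in the legend; bars carry 95% exact binomial intervals. The octamer is in 0.81% of OCA-B-high and 10.5% of OCT2-high windows, and the GC box is in 66.0% of OCA-B-high and 21.1% of OCT2-high windows.

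The pairs with the largest differences at gene boundaries, among those with summits within 250 bp, began on the OCA-B side with RRAGB, a GTPase of the amino acid sensing machinery at the lysosome. It had a pileup of 79 for OCA-B and 10 for OCT2, a rank difference of 86.8, and folds over the control of 33.1 for OCA-B and 3.97 for OCT2. ZBTB7B, a zinc-finger factor known from CD4 T cell commitment, had pileups of 124 for OCA-B and 14 for OCT2, with summits 17 bp apart and an OCT1 peak. At HPS5, a subunit of a complex that builds lysosome-related organelles, the pileup was 117 for OCA-B and 15 for OCT2. NEU1, the lysosomal sialidase, had 26 for OCA-B and 8 for OCT2 at a summit inside SLC44A4. DEXI, which lies beside CIITA, had 48 for OCA-B and 12 for OCT2, and TSSC4, a splicing factor gene, had 52 for OCA-B and 14 for OCT2 with summits 1 bp apart. The other 4 of the 10 were ZNF813, CACNG1 and the lncRNA genes LOC124900651 and LOC124904875. Across the 10 pairs, pileups were 26 to 124 for OCA-B and 8 to 15 for OCT2, and 6 of the 10 had an OCT1 peak and 3 a MED1 peak. Among all OCA-B-high boundary pairs, 66.97% had an OCT1 peak and 53.8% a MED1 peak.

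CDK4, the G1 kinase, and ATF4, the transcription factor of the integrated stress response, also had OCA-B-high pairs, and their upstream sequences are printed above. At CDK4 the OCA-B summit lay at -203 bp and the OCT2 summit at -482 bp from the gene start. These summits are farther apart than the limit set for the pairs of the preceding paragraph, so the CDK4 pileups come from different positions. The pileup at CDK4 was 116 for OCA-B and 18 for OCT2, and at ATF4 it was 76 for OCA-B and 18 for OCT2. Both were singled out after their values were seen, as were DNAJC8 (63 for OCA-B and 15 for OCT2) and COMMD4 (62 for OCA-B and 15 for OCT2). At TOP1, with its octamer, the pileup was 75 for OCA-B and 17 for OCT2, a difference of 54.0 points.

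On the OCT2 side, the largest boundary difference was at SMDT1, a regulator of the mitochondrial calcium uniporter, with a pileup of 8 for OCA-B and 96 for OCT2 and a rank difference of -90.9. MDGA1, a neuronal cell adhesion gene, had 14 for OCA-B and 141 for OCT2. At SEC23IP, which acts at endoplasmic reticulum exit sites, the values were 8 for OCA-B and 47 for OCT2. The kinase gene NEK6 had 10 for OCA-B and 55 for OCT2, TSACC had 11 for OCA-B and 59 for OCT2, and MOGS, the first glucosidase of N-glycan trimming, had 11 for OCA-B and 46 for OCT2. The rest were the lncRNA genes LINC02806, LOC105372497, LOC124901804 and LOC102723890. Across the 10 pairs, pileups were 8 to 14 for OCA-B and 37 to 150 for OCT2, and 2 of them, at LINC02806 and MOGS, used an OCT2 peak shared with another OCA-B peak. An OCT1 peak was at 4 of the 10, against 15.2% of all OCT2-high boundary pairs, and a MED1 peak at 4, against 70.2%. The lowest OCA-B pileup of any pair was 6, so the OCA-B values of 8 to 14 lie close to the detection limit.

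Distal pairs were named by the protein-coding gene whose end was closest, within 100 kb. OCA-B led at CYP1A1, the xenobiotic-inducible cytochrome, with a pileup of 73 for OCA-B and 11 for OCT2, and at C3, the central complement gene, with 60 for OCA-B and 11 for OCT2. It also led at RASA3 (47 for OCA-B, 10 for OCT2), EOLA2 (52 for OCA-B, 11 for OCT2), RGCC (43 for OCA-B, 11 for OCT2) and SH2D3A (39 for OCA-B, 11 for OCT2). Only 1 of these 6 had an OCT1 peak, 1 a MED1 peak and none a CREBBP peak. OCT2 led near HAPSTR1 (10 for OCA-B, 129 for OCT2), TMEM129 (11 for OCA-B, 143 for OCT2) and RPA4 (10 for OCA-B, 95 for OCT2). The pair near TMEM129 used an OCT2 peak shared with another OCA-B peak. FMO2 had 11 for OCA-B and 113 for OCT2, and MRPS28 had 11 for OCA-B and 107 for OCT2. The pairs near HAPSTR1 and TMEM129 overlapped peaks of OCT1, MED1 and CREBBP, whereas the pair at FMO2 overlapped none of them. The pair at MRPS28 overlapped OCT1 and CREBBP, and that near RPA4 overlapped MED1 and CREBBP. Over all distal OCT2-high pairs the shares were 13.2% for OCT1, 60.4% for MED1 and 61.8% for CREBBP. The nearest gene need not be the one a distal site acts on.

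At the threshold itself, the OCA-B-high pair just inside it, near SSBP2, had pileups of 57 for OCA-B and 24 for OCT2, a difference of 30.1 points. The pair just outside, near TMEM232, had 101 for OCA-B and 29 for OCT2, at 29.96 points. On the other side, the OCT2-high pair just inside, near LRGUK, had 30 for OCA-B and 281 for OCT2, at -30.1 points, with summits 2709 bp apart on an OCT2 peak of 3683 bp, so that the values are not of 1 site. The pair just outside, near KAZN, had 28 for OCA-B and 171 for OCT2, at -29.99 points and with summits 887 bp apart.

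The 10 pairs with the highest sum of ranks had pileups between 239 and 294 for OCA-B and between 283 and 290 for OCT2, and each overlapped a peak of OCT1, MED1, CREBBP and EP300. They included sites near PIM1, a serine/threonine kinase gene of lymphomas (240 for OCA-B, 286 for OCT2), in ST6GAL1, the sialyltransferase that makes the CD22 ligand (247 for OCA-B, 287 for OCT2), and near RGCC (239 for OCA-B, 288 for OCT2). RGCC had pairs of all kinds: of 19, 3 were OCA-B-high and 3 OCT2-high, and the differences ran from -74.0 to 71.4. CHD7, CEP128, SAMD7 and TNS3 were nearest to 4 more, and the remaining 3 lay over 100 kb from their nearest genes, BRD1, SPACA1 and PROS1. Near PROS1 the fold was only 1.86 for OCA-B and 1.66 for OCT2, at pileups of 294 for OCA-B and 284 for OCT2, so the control was also high at that site.

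Medians over all pairs of a gene were taken next. Of 1100 protein-coding genes with 8 or more pairs, 79 had a median difference above 0, none had one at 30 or more and 25 had one at -30 or less. The median over these genes was -9.45. All are on the within-list scale, whose direction turned with the ranking, so no lead of OCT2 can be read from the counts. The highest medians were at IER2, an immediate early gene (14.4 over 13 pairs), RNF44 (14.1 over 8), TRIM7 (10.6 over 9), CBFA2T3, a corepressor gene (9.62 over 10), and HMGN4 (8.59 over 8). The lowest were at PLPP3, a lipid phosphatase gene (-44.98 over 13 pairs), ALOX5, the 5-lipoxygenase (-44.0 over 8), SLC44A1 (-41.0 over 9), CUL3, a ubiquitin ligase scaffold (-38.5 over 16), and B3GLCT (-38.5 over 9). At ALOX5, 7 of 8 pairs, and at CUL3, 11 of 16, lay on shared OCT2 peaks, and in pairs with 1 peak on each side the values were -7.81 over 1 pair at ALOX5 and -10.2 over 5 at CUL3. At PLPP3 (-45.9 over 11), SLC44A1 (-41.0 over 7) and B3GLCT (-38.5 over 7) the median in such pairs stayed low.

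The gene lists were read against the whole set, where the median difference was -7.24 over 38389 pairs within 100 kb of a gene, 2.68% were OCA-B-high and 17.8% OCT2-high. Of the 18 lists, 13 had a median above that value. The germinal centre list had a median of -8.18 over 374 pairs of its 24 genes, with 5 OCA-B-high (1.34%) and 78 OCT2-high (20.9%). Its genes with the most pairs were BACH2 (median -9.31 over 37 pairs), FOXO1 (-19.9 over 36) and KLHL6 (-10.9 over 35), all with transcriptional or signalling roles in germinal centre cells. The B cell identity list had -4.49 over 255 pairs, with ETS1 at -13.3, IKZF1 at -14.3, PAX5 at -1.42 and BLK at -5.81. B cell receptor signalling had -7.06 over 241 pairs, led in number by PLCG2 (-10.8) and SYK (-9.24). The plasma cell list had -5.26 over 164 pairs, with EDEM1 at -6.92 and TXNDC5 at -2.93, and CD40 and NF-kB genes had -7.76 over 84, with TRAF1 at -7.55 and TNFAIP3 at -11.3. Class II antigen presentation genes had -11.6 over only 20 pairs, with CIITA at -2.25 and CD74 at 3.01, while the 5 HLA genes with a pair ran from -22.2 at HLA-DMA to -46.1 at HLA-DQA1. None of these 20 pairs was OCA-B-high and 6 were OCT2-high. At gene boundaries the median of all pairs within reach was 0.90. The germinal centre list had -4.38 there over 48 pairs and B cell receptor signalling -4.41 over 37. B cell identity had -2.16 over 33 and class II genes -14.4 over only 5, and all of these were lower. Lower values were not confined to B cell lists. Small nuclear RNA and related genes had -3.05 over 14 pairs and other replication-dependent histone genes -1.57 over 51. T cell genes had -9.32 and liver genes -3.83, but over only 5 and 4 pairs. Among lists with boundary pairs, only the cytosolic ribosomal protein, cell cycle and stress lists lay above 0.90.

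Ribosomal, cell cycle and stress lists were among the 13 with medians above that of the whole set. Cytosolic ribosomal protein genes had a median of -0.07 over 78 pairs (RPL11 at -0.87, RPS19 at 11.2) and cell cycle genes -3.37 over 65 (MCM3 at -11.3, E2F1 at 3.20). No ribosomal pair and 1 cell cycle pair (1.54%) were OCA-B-high, and 7.69% of the pairs of each list were OCT2-high. Of their boundary pairs alone the medians were 4.62 and 3.01, against 0.90 for all boundary pairs within reach. Oxidative and stress response genes had the largest share of OCA-B-high pairs among the lists with 20 or more pairs, 8 of 99 (8.08%, against 2.68%), and 14 OCT2-high pairs (14.1%). The 8 were 2 each at IER2 and ATF4 and 1 each at SLC2A1, the glucose transporter, GADD45B, a stress sensor, and GCLC and GCLM, the subunits of glutamate-cysteine ligase. At the start of GCLC the pileup was 22 for OCA-B and 11 for OCT2, and at that of GCLM it was 18 for OCA-B and 11 for OCT2, both low. FOS, of the same list, had a median of -1.77 over 8 pairs and CDKN1A -0.33 over 8.

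Replication-dependent H2B genes had a median of -0.62 over 47 pairs, other replication-dependent histone genes -4.08 over 110, and small nuclear RNA and related genes -2.69 over 82.

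Lists of other cell types had between 7 and 44 pairs. T cell genes had a median of -18.1 over 44 pairs of 9 of 15 genes, 13 of them OCT2-high (29.5%), with LCK at -20.0 over 16 and CD28 at -27.9 over 10. Myeloid genes had -19.3 over 10 pairs (CEBPE at -26.6, LYZ at -21.6), liver genes -2.41 over 9 (TF at 1.23), neuron genes -6.40 over 8 (GAD2 at -28.2) and erythroid genes 1.13 over 7 (EPOR at 9.81). All 7 B cell marker genes had a pair, 87 in all, against 4 of 6 T cell and 2 of 5 myeloid marker genes with 12 and 3 pairs. Of all 20003 protein-coding and listed genes, 11392 had a pair within 100 kb, so counts this small do not check the line's identity. Peak lists give no expression, so this says only where pairs lay.

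At the genes of the complex itself 22 of 40 pairs lay within 10 points of equal rank (55%, against 42.2% of all pairs), none was OCA-B-high and 4 were OCT2-high. POU2AF1, which encodes OCA-B, had 12 pairs with a median difference of -7.54, none OCA-B-high and 2 OCT2-high. The strongest, at its gene boundary, had a pileup of 86 for OCA-B and 111 for OCT2, ranks of 93.8 for OCA-B and 93.4 for OCT2, and an OCT1 peak. POU2F2 had 11 pairs with a median of 2.08, and the strongest had 111 for OCA-B and 130 for OCT2. POU2F1 had 17 pairs with a median of -6.58, 2 of them OCT2-high, and the strongest had 200 for OCA-B and 274 for OCT2.

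H2B genes and small RNA genes, whose promoters classically carry octamers, differed in the ratio of the signals. For each H2B gene and each small RNA gene the pair with the highest OCT2 pileup within 1 kb was taken, which favours OCT2. Replication-dependent H2B genes had a pair at 15 of 18 genes, with pileups of 45 to 248 (median 179) for OCA-B and 168 to 277 (median 254) for OCT2. H2BC3 had 248 for OCA-B and 254 for OCT2, with summits 1 bp apart, and H2BC4 had 234 for OCA-B and 277 for OCT2. The lowest values, at H2BC15 (45 for OCA-B, 168 for OCT2) and H2BC13 (76 for OCA-B, 168 for OCT2), came from OCA-B summits 971 bp and 997 bp outside these genes, the second nearest to H2AC13, and are not values of their promoters. The ratio of the OCA-B pileup to the OCT2 pileup had a median of 0.733, beside 0.527 for all 2543 pairs with an OCT2 rank of 97.5 or more.

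Small RNA genes were split after their values were seen, by the polymerase that transcribes them. The 16 genes of RNA polymerase II, such as those of U1, U2, U4 and U5 RNA, had pileups of 85 to 217 (median 133.5) for OCA-B and 125 to 276 (median 254) for OCT2, with a median ratio of 0.528. The summits of 9 of these 16 pairs lay 200 bp or more apart (median 206.5 bp, against 11 bp in the polymerase III set), so their ratio often compares different positions. RNU2-1 had 217 for OCA-B and 232 for OCT2, RNU1-1 had 165 for OCA-B and 265 for OCT2, and RNU5A-1 had 147 for OCA-B and 276 for OCT2. The 13 genes of RNA polymerase III had pileups of 22 to 104 (median 48) for OCA-B and 71 to 260 (median 219) for OCT2, with a median ratio of 0.234 and a range of 0.150 to 0.470. RN7SK, whose RNA restrains the elongation factor P-TEFb, had 48 for OCA-B and 205 for OCT2, and RNY1, a Y RNA gene, had 38 for OCA-B and 253 for OCT2 with summits 11 bp apart. RNU6ATAC, of the minor spliceosome, had 52 for OCA-B and 260 for OCT2, and RNU6-1, of the major one, had 77 for OCA-B and 247 for OCT2. The highest OCA-B pileups of this set were at RNU6-2 (104 for OCA-B, 228 for OCT2), RPPH1, the RNA of RNase P (103 for OCA-B, 219 for OCT2), and RMRP (100 for OCA-B, 237 for OCT2).

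In a comparison added later, only pairs with summits within 100 bp of each other and at most 500 bp from the gene were kept. There the OCA-B pileups were 159 to 248 at 13 H2B genes, 85 to 217 at 7 polymerase II genes and 38 to 104 at 11 polymerase III genes. The OCA-B ranges of the H2B and polymerase III sets did not overlap, and those of the polymerase II and III sets overlapped between 85 and 104. The median ratio was 0.746 in the H2B, 0.632 in the polymerase II and 0.234 in the polymerase III set. Taking the pair of highest OCT2 pileup lowers the ratio, so pairs of like OCT2 rank, with a median of 0.527, are the nearer comparison. Before that restriction, 2 of 15 H2B, 8 of 16 polymerase II and 13 of 13 polymerase III genes lay below 0.527. OCT2 pileups reached 277 here, near their limit of 290, so OCT2 differences between the sets may be compressed. Several of these genes have near-identical copies, and how tags were shared among copies is not given in the sources used here, so single values, the U1, U5 and U6 genes among them, are uncertain. Each of these 44 pairs also overlapped an OCT1 peak, as did 84.1% of the middle pairs in the strongest quintile of all pairs by mean rank. RefSeq windows were held for 18 H2B genes, of which 14 had the octamer in a window. Small nuclear RNA promoters were not analysed here for sequence.

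**Figure D5:**
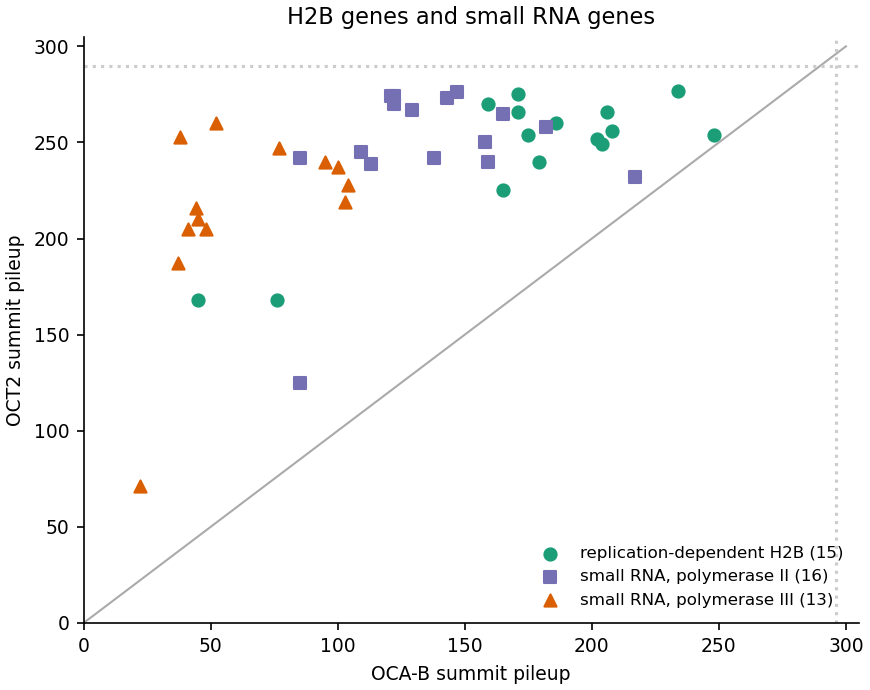
Summit pileup of OCA-B (x axis) against that of OCT2 (y axis) at 15 H2B genes, 16 small RNA genes of polymerase II and 13 of polymerase III, 1 point per gene; the grey line marks equal pileups and the dotted lines the highest pileups possible, 296 for OCA-B and 290 for OCT2. The polymerase III genes lie at 22 to 104 for OCA-B, and 13 of the 15 H2B genes lie at 159 or more, the other 2 being pairs with summits 971 and 997 bp outside the gene.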

How the data were processed

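Each library was sequenced as 51 bp tags. The submitters' processing notes name MACS2 2.1.1.20160309, SAMtools 1.3.1, CASAVA 1.8.2 and Bowtie2 2.3.2.2, with hg38. Per the file headers each list was called on its own against 1 control file (37517450 tags after filtering), with 1 tag kept per position and a q threshold of 0.05. After filtering, 19965282 OCA-B and 22142497 OCT2 tags remained, and the redundant rate was 0.08 for OCA-B and 0.11 for OCT2. The deposited pileup is a signal (coverage at the summit), the deposited fold enrichment is a ratio to the control, and the deposited significance is a −log10 p-value or q-value; all are the authors' values.

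Pairs, ranks and overlaps were computed in Python 3.11.15 with pandas 2.3.3, numpy 2.4.6 and scipy 1.17.1, and tested on simulated peaks. Alternate contigs were not used. The members, gene lists, thresholds and naming rules were chosen with earlier results of these data known. Named pairs had summits within 250 bp and the most extreme differences (10 per direction at boundaries, 6 distal), 1 per gene, of which 1 distal pair is not reported here; further names were the 5 highest and 5 lowest gene medians, the 10 strongest pairs, list members with most pairs, the octamer factor genes and octamer-bearing promoters. Promoters with CACGTG were also named, and the limit on summit distance was not applied to them. A pair went to the nearest end of a protein-coding or listed gene within 100 kb, from RefSeq GRCh38.p14. With 1 library per factor no test was made. Intervals are exact binomial and cover counting error only.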

Additional observations from a re-analysis of the deposited data

Results flagged for a closer look

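Alternate and unplaced contigs, which no comparison above used, held 1845 OCA-B peaks and 2160 OCT2 peaks, and 1285 of these OCA-B peaks overlapped an OCT2 peak. This is signal in data outside the main measurement; tags there can come from sequence also present on the main chromosomes, and their part in the counts above was not tested.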

How the results depend on the processing

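No paired analysis was possible because each factor had 1 library. The median rank difference (-8.00) turned to 0.91 with ranks among the pairs and, in a choice made later, to 0.69 at gene boundaries, against -10.4 at distal sites. It was -6.63 with folds ranked, -7.43 with −log10 q ranked, -1.93 with OCT2 shortened, -6.59 with summits within 100 bp and -7.31 with 1 peak on each side. The log2 width ratio (-0.30) turned to 0.079 at gene boundaries, against -0.40 at distal sites. No other result in the list below reversed, and all 9 counts of pairs stayed within 1.5 times of 43320 (32824 to 43320). Spearman's rank correlation of the pileups was 0.53 with folds ranked, 0.57 with −log10 q ranked, 0.63 with the OCT2 list shortened to the OCA-B length, 0.76 with summits within 100 bp, 0.73 in pairs with 1 peak on each side and 0.68 with −log10 q over 5. In the last 4 of these settings and with an overlap of 50% of the shorter peak, the median offset was 34, 25, 31, 30 and 34 bp. The log2 width ratio was -0.34, -0.24, -0.21 and -0.27 in those 4 settings. OCA-B-high pairs numbered 3279 with folds, 2343 with −log10 q, 3800 with ranks among the pairs and 2801 with OCT2 shortened, and 2494 or 148 at 20 or 50 points in place of 30. OCT2-high pairs numbered 4121 with ranks among the pairs, 5097 with OCT2 shortened, 5004 with summits within 100 bp, and 12729 or 2694 at 20 or 50 points.

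OCA-B-high minus OCT2-high, the boundary share differed by 37.4 points with folds, 37.7 with −log10 q, 45.001 with 1 peak on each side and 46.7 with −log10 q over 5. The OCT1 share differed by 29.9 with folds, 30.2 with −log10 q, 31.8 with OCT2 shortened, 41.2 with −log10 q over 5, 31.4 and 44.2 at 20 and 50 points, and, chosen after seeing the data, 51.8 at boundaries and 19.9 at distal sites. The MED1 share differed by -4.07 with ranks among the pairs, -3.11 with OCT2 shortened, -0.62 with summits within 100 bp, -11.4 with the OCT2 peak of highest pileup, -1.82 with 1 peak on each side and -16.1 at 50 points, and, chosen later, by -11.3 within quintiles of mean rank and -16.5 at boundaries. The intervals of the MED1 difference included 0 with summits within 100 bp (-4.50 to 3.27) and with 1 peak on each side (-5.36 to 1.74). The octamer share (-9.72 points) lay between -12.2 and -7.92 and the CACGTG share (14.3 points) between 7.54 and 13.04 under 3 alternatives each, all chosen after seeing the data; the intervals of the CACGTG difference included 0 in windows of 45% to 60% G and C (-0.87 to 20.1) and with ranks among the pairs (-4.76 to 13.6). Assigning pairs within 25 kb left 12 of 18 gene lists above the median of all pairs, against 13. The causes of these changes were not tested. Depth limits the weak members: OCA-B-high pairs had a median OCT2 pileup of 15 and OCT2-high pairs a median OCA-B pileup of 14.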
